A study of Arabidopsis thaliana with 12 samples.

Results

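The chloroplast of Arabidopsis thaliana keeps a small genome of its own, and the plastid loci described here are those of that genome whose mean over all 12 libraries reached 1 FPKM (fragments per kilobase of transcript, scaled to the depth of the library). They were chosen by the prefix ATCG of the locus identifier and by that mean. The deposited table holds 134 plastid loci among 38088 loci in all, and 66 of the 134 reached the mean. The choice used no difference between groups. Just inside the limit lay psbA at 1.08 FPKM, petD at 1.11 FPKM and ndhA at 1.13 FPKM, and just outside it lay ycf4 at 0.952 FPKM and rpoB at 0.824 FPKM.

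The libraries come from 5-d-old seedlings of the dcp5-1 mutant and of Col-0, the wild type, each sampled after 60 min and after 0 min in liquid medium with 150 mM NaCl. The 4 groups are dcp5-1 at 60 min, dcp5-1 at 0 min, Col-0 at 60 min and Col-0 at 0 min, with 3 libraries in each. No group was kept for 60 min in medium without NaCl, so effects of salt and of time in medium cannot be told apart. A response to salt below stands for 60 min against 0 min. Seeds of every group were kept in water at 4 °C for 3 d, and the seedlings had germinated on MS agar at 22 °C with 16 h of light and 8 h of dark and had rested for 30 min in MS liquid medium before salt, and RNA was extracted from an input lysate. DCP5, the gene that the mutant is named after and a cytosolic factor of messenger RNA decapping, averaged 20.5 ± 0.220 FPKM in dcp5-1 and 80.1 ± 4.26 FPKM in Col-0 at 60 min, and 13.0 ± 0.105 FPKM in dcp5-1 and 50.7 ± 1.99 FPKM in Col-0 at 0 min (SD, n = 3 each), so its transcript was reduced in the mutant but not absent. The labels do not say that the libraries of a group came from separate cultures, so each p-value reflects only how much these libraries varied, and that variation may be technical.

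Plastid genes encode the core of photosystem II (psb), photosystem I (psa), the cytochrome b6f complex (pet), the ATP synthase (atp), the NADH dehydrogenase-like complex (ndh), the large subunit of Rubisco (rbcL), part of the plastid ribosome (rpl, rps and rrn) and the core of a bacterial-type RNA polymerase (rpo). Most lie in clusters that are transcribed together and cut into overlapping messages. That polymerase works with nucleus-encoded sigma factors, and a second, phage-type polymerase encoded in the nucleus transcribes other plastid genes. Plastid messages mostly lack the long poly(A) tail of nuclear messages, and short A-rich tails in plastids mark RNA for decay. The labels name a standard Illumina mRNA protocol and say neither how messages were selected nor whether strand was kept, so levels of plastid genes here are levels in an mRNA library, not in total RNA.

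Names came from the usual TAIR locus nomenclature and were kept for 49 of the 66 loci. In these the transcript length recovered from the FPKM steps equalled the spliced length in the RefSeq annotation of TAIR10.1 within 1 nt. For rps12 the length matched was that of exons 2 and 3 only. The other 17 are given by identifier only. Several named genes overlap a neighbour or have a second copy, which bears on every value below because the rule for dividing shared reads is not given in the sources used here. The reading frames of psbD and psbC, which encode the D2 reaction centre protein and the CP43 antenna protein of photosystem II, share 53 bases. The frames of atpB and atpE (beta and epsilon subunits of the ATP synthase) share 4, and those of rpl22 and rps3 share 16. These stretches are shown with the shared bases in capitals, each 5′ to 3′ on the strand of the genes, at Pltd:33700-33792 (plus strand), Pltd:52640-52683 (minus strand) and Pltd:83447-83502 (minus strand) of TAIR10.1.
psbD-psbC: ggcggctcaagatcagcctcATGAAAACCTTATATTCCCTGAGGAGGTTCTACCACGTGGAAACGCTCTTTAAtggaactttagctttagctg
atpB-atpE: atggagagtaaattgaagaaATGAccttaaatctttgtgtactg
rpl22-rps3: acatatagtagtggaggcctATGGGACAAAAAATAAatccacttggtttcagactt

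The inverted repeat holds each of its genes in 2 copies. The copies of rpl23, which encodes a protein of the large ribosomal subunit, had 0 differences over 282 nt. A read within them therefore cannot be given to one copy, and the copies are written here as rpl23.1 (ATCG00840) and rpl23.2 (ATCG01300), and those of other genes likewise. The sequence is shown once, from Pltd:85862-86143 on the minus strand, with the start and the stop codon in capitals. Of its copies, rpl23.2 was the only plastid locus called higher in the mutant and had the largest called rise in salt.
rpl23: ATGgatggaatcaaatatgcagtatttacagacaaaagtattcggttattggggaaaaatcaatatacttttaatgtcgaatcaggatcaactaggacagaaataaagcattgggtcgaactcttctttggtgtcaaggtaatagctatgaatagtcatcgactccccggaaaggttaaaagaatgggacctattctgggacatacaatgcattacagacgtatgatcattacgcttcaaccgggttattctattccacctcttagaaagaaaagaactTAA

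The ycf1 gene, which encodes a large protein ascribed to the import machinery of the inner envelope, crosses an edge of the inverted repeat. Its first 1030 bases are therefore present again in a truncated copy of 1032 nt, ycf1.1 (ATCG01000), while the whole gene, ycf1.2 (ATCG01130), has 5361 nt. The bases around the point where they part are shown from Pltd:110405-110454 (plus strand) and Pltd:128195-128244 (minus strand), with the bases after the shared stretch in capitals.
ycf1.1: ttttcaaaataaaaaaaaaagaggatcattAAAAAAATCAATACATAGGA
ycf1.2: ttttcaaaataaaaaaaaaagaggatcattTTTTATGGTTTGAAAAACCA

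Whole reads could be recovered from the FPKM steps for 71 plastid loci, 184759 reads over the 12 libraries. These were 10560 to 21148 reads per library, against 14540000 to 21030000 reads that the FPKM scale of a library stands for. Per 1000000 reads of that scale, plastid loci had 558.4, 528.3 and 592.6 reads in dcp5-1 at 60 min and 974.6, 1036.2 and 1005.8 in Col-0 at 60 min. At 0 min they had 756.6, 669.9 and 763.0 in dcp5-1 and 896.7, 1152.2 and 1055.0 in Col-0. Every dcp5-1 library lay below every Col-0 library at both times. As a share of the scale, recovered plastid reads were 0.0560% ± 0.00322 in dcp5-1 and 0.101% ± 0.00308 in Col-0 at 60 min, and 0.0730% ± 0.00520 in dcp5-1 and 0.103% ± 0.0129 in Col-0 at 0 min (SD, n = 3 each). The exact two-sided permutation test gave p = 0.1 for each genotype comparison and for salt in dcp5-1, the smallest p that 3 against 3 libraries allow, and p = 0.7 for salt in Col-0. In bulk seedlings, fewer cells with chloroplasts and less plastid RNA per cell cannot be told apart. These are also shares of an mRNA library, so a difference in total plastid RNA was not tested.

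**Figure D1:**
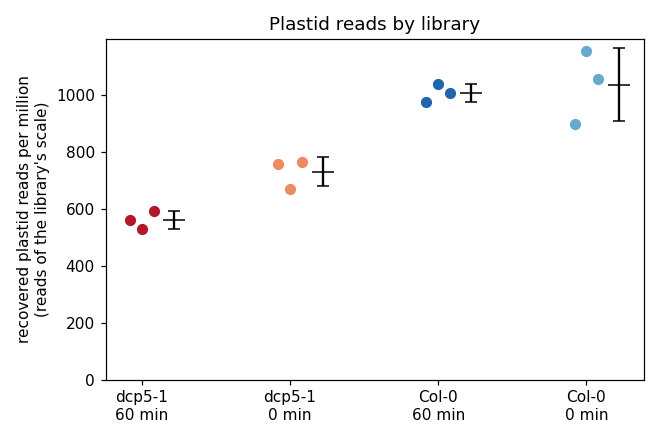
Recovered plastid reads per 1000000 reads of the library's FPKM scale (vertical axis) in the 12 libraries by group, with points for libraries and bars for the mean ± SD. The 3 dcp5-1 libraries at 60 min lie between 528.3 and 592.6, below the 3 Col-0 libraries at 60 min, which lie between 974.6 and 1036.2.

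Reads were spread very unevenly over the genes. The 20 named loci of plastid ribosomal proteins held 40.6% of the recovered plastid reads. A further 40.5% fell on the 4 other protein loci, of which ycf1.2 alone had 72579 reads. The 6 loci of the ATP synthase held 5.78%, the 5 of the NDH complex 3.63%, the 6 of photosystem II 2.78%, rpoA 2.24%, both copies of the 23S ribosomal RNA 1.51%, rbcL 0.887%, the 2 of photosystem I 0.613% and the 2 of the cytochrome b6f complex 0.165%. In FPKM, rps19 (small ribosomal subunit) had the highest mean of the named loci, 305.5 FPKM, followed by rps3 at 193 FPKM and the rpl2 copies at 140.2 and 137.5 FPKM. Values came out as whole reads when the length was reduced by a fitted mean fragment of 245.4 to 264.5 nt. Loci little longer than a fragment therefore have a high FPKM per read. With 2997 reads over 279 nt for rps19 and 17178 over 657 nt for rps3, reads per length would give another order. At the other end of the order by FPKM stood psbA, which encodes the D1 protein of photosystem II, with 184 reads in all. The genes psbA and rbcL are textbook examples of abundant messages in leaf chloroplasts, and rbcL averaged 6.22 FPKM here.

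The order by FPKM went with base composition as a description. Over the 49 named loci, Spearman's rho of the mean FPKM with the percentage of A in the transcript was 0.48, with the longest run of A 0.15 and with length -0.41. Over the 29 loci left without ribosomal proteins these were 0.19, -0.03 and -0.37. The points share the 12 libraries, and the FPKM carries the length, less a fragment, in its denominator, which raises short loci. The first 279 bases of psbA, at Pltd:1166-1444 on the minus strand, and the whole rps19 frame of the same size, at Pltd:84005-84283 on the minus strand, are shown as the 2 ends of the order by FPKM. Runs of at least 4 A are in capitals, and A makes up 22.9% of the psbA stretch and 38.7% of rps19.
psbA: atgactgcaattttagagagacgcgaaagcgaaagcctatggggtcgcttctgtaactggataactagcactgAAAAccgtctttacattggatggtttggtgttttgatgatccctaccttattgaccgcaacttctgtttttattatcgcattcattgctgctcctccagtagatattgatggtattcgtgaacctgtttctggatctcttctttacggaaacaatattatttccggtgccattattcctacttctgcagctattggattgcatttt
rps19: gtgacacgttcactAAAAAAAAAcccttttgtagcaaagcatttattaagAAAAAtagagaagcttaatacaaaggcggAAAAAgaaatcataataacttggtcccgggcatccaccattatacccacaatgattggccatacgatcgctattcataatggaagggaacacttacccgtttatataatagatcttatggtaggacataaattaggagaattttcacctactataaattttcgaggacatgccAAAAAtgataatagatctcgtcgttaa

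**Figure D2:**
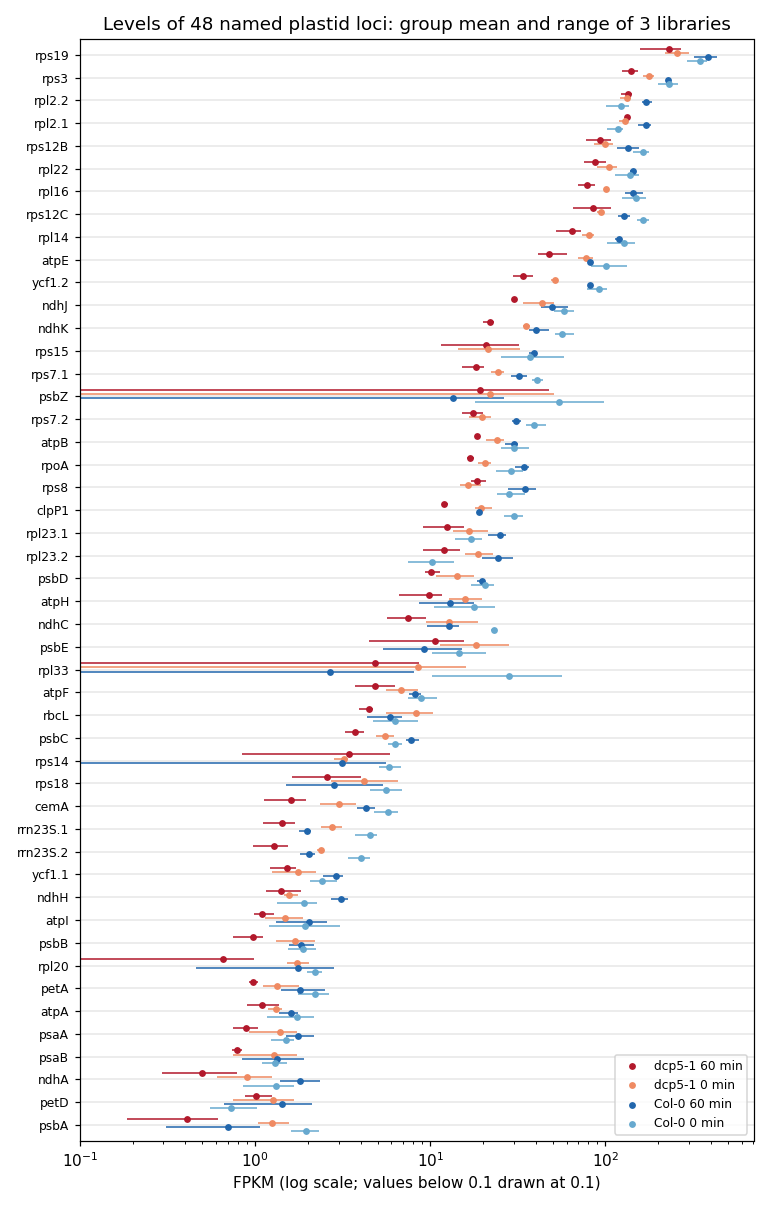
Mean FPKM (points, log axis) and range of 3 libraries (lines) of 48 named plastid loci in dcp5-1 at 60 min, dcp5-1 at 0 min, Col-0 at 60 min and Col-0 at 0 min, ordered by the mean over all libraries. Loci of ribosomal proteins fill the top 9 places, from rps19 at 305.5 FPKM down to rpl14 at 97.9 FPKM, and psbA is last at 1.08 FPKM.

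Among the genes of interest below 1 FPKM, petB (0.643 FPKM), ndhF (0.296 FPKM), rpoB (0.824 FPKM), accD (0.114 FPKM) and rps4 (0.762 FPKM) were outside the choice and were not tested. Of the 4 plastid genes of the polymerase core, rpoA alone reached 1 FPKM.

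The first comparison asked how plastid genes of dcp5-1 stood against Col-0 after 60 min in salt. On log2(FPKM + 1), 37 of the 66 plastid loci were lower in dcp5-1 and 0 were higher at an adjusted p under 0.05 in limma, adjusted over 19876 loci. Among all loci tested, 27.4% were called lower and 27.1% higher. At an unadjusted p under 0.05, 0 plastid loci were higher and 40 lower, and limma-voom on the recovered reads gave 0 higher and 37 lower among the 49 plastid loci that it could fit. No share of all loci is given beside counts by unadjusted p or by voom, here and below. The median log2 fold change was -0.67 over the plastid loci and -0.01 over all loci. In 39 plastid loci all 3 dcp5-1 libraries were below all 3 Col-0 libraries, a pattern that 33.2% of all loci showed. The opposite pattern was found in 0 plastid loci and in 31.9% of all loci.

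The plastid locus with the most recovered reads, ycf1.2, had the largest fall on log2(FPKM + 1) among the called loci at 60 min. It had 33.9, 29.6 and 38.4 FPKM in dcp5-1 and 81.0, 82.8 and 80.3 FPKM in Col-0 at 60 min. The groups were far apart relative to their spread, with a log2 fold change of -1.24 ± 0.10 (SE) and an adjusted p of 2.24e-06, and dcp5-1 stood at 41.8% of Col-0. The truncated copy ycf1.1 had 1.22, 1.71 and 1.63 FPKM in dcp5-1 and 3.20, 3.09 and 2.46 FPKM in Col-0 (adjusted p = 0.00381). The envelope protein gene cemA had 1.96, 1.12 and 1.69 FPKM in dcp5-1 and 4.27, 3.82 and 4.84 FPKM in Col-0 at 60 min, a log2 fold change of -1.04 ± 0.16 (SE). In FPKM without the added 1, cemA stood at 37.0% of Col-0, a lower share than that of ycf1.2. Its libraries did not overlap either. The locus ATCG01020 was lower by a similar amount, at 1207, 957 and 858 FPKM in dcp5-1 and 1903, 2861 and 1687 FPKM in Col-0 (log2 fold change -1.07 ± 0.30 SE). Its mean of 3089 FPKM lay above the limit up to which a length was sought, so it has no name and no read count here.

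Ribosomal protein genes fell in dcp5-1 at 60 min in 16 of 20 named loci, beside 27.4% of all loci. The cluster that runs from rpl23 to rpoA is a long plastid operon of ribosomal protein genes that ends with the alpha subunit of the polymerase. All 10 of its named loci fell, with a median log2 fold change of -0.87. Its last gene, rpoA, had 17.7, 16.2 and 16.9 FPKM in dcp5-1 and 30.4, 36.4 and 36.5 FPKM in Col-0 (log2 fold change -0.98 ± 0.11 SE, adjusted p = 3.37e-05). In rps19, the cluster's highest gene by FPKM, the libraries stood at 269, 158 and 265 FPKM in dcp5-1 and 320, 434 and 408 FPKM in Col-0 (adjusted p = 0.00725). The smallest fall in the cluster was that of rpl2.1, at 132, 131 and 135 FPKM in dcp5-1 and 154, 183 and 171 FPKM in Col-0, or -0.35 ± 0.09 (SE) on the log2 scale. Neighbouring genes of the cluster share messages and, in part, bases, so the 10 are not 10 separate observations.

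**Figure D3:**
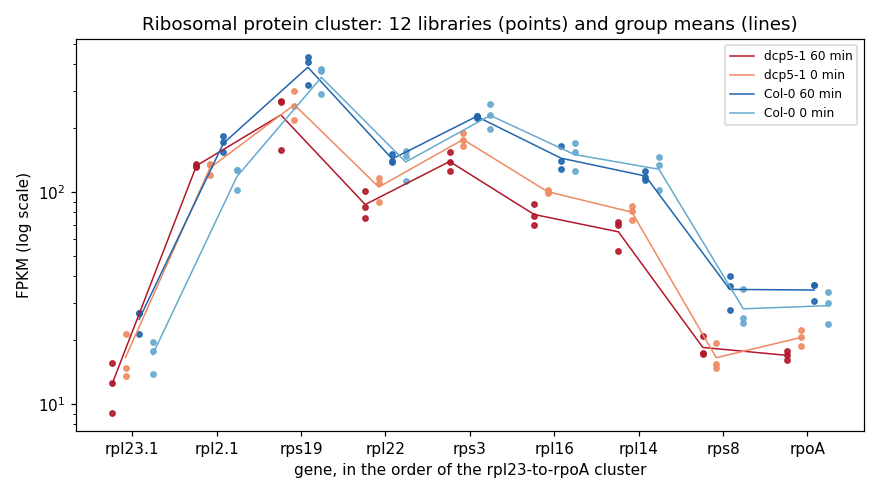
FPKM (log axis) of 9 named loci of the rpl23-to-rpoA cluster in cluster order, with a point for each of 12 libraries and lines through the means of dcp5-1 at 60 min, dcp5-1 at 0 min, Col-0 at 60 min and Col-0 at 0 min. In all 9 loci the 3 dcp5-1 libraries at 60 min lie below the 3 Col-0 libraries at 60 min, as at rpoA with 16.2 to 17.7 against 30.4 to 36.5 FPKM.

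Photosynthesis genes were lower in 13 of 22 named loci at 60 min, beside 27.4% of all loci, with a median log2 fold change of -0.53. All 5 named genes of the NDH complex, which carries electrons back around photosystem I, fell, with log2 fold changes of -0.90 to -0.69. In ndhA the libraries held 0.784, 0.418 and 0.294 FPKM in dcp5-1 and 1.65, 1.39 and 2.36 FPKM in Col-0, from 5 to 13 reads in dcp5-1 and 23 to 41 in Col-0. By limma-voom on recovered reads the log2 fold change of ndhA was -1.87, beside -1.42 for cemA and -1.27 for ycf1.2. The better counted ndhK had 22.7, 19.96 and 23.01 FPKM in dcp5-1 and 36.5, 47.9 and 36.4 FPKM in Col-0 (log2 fold change -0.84 ± 0.12 SE, adjusted p = 0.000104). Of the photosystem II genes, psbC, psbD and psbB fell. The libraries of psbC stood at 3.25, 4.16 and 3.74 FPKM in dcp5-1 and 7.25, 8.68 and 7.47 FPKM in Col-0 (log2 fold change -0.90 ± 0.10 SE, adjusted p = 2.55e-05). In psbD they stood at 9.66, 11.4 and 9.35 FPKM in dcp5-1 and 20.5, 18.5 and 20.3 FPKM in Col-0 (log2 fold change -0.90 ± 0.15 SE). The CP47 antenna gene psbB had 0.744, 1.05 and 1.11 FPKM in dcp5-1 and 1.76, 1.57 and 2.17 FPKM in Col-0 (adjusted p = 0.00951).

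The D1 gene psbA did not pass the test at 60 min, with 0.186, 0.612 and 0.422 FPKM in dcp5-1 and 0.724, 0.310 and 1.06 FPKM in Col-0, which is 3 to 10 reads in dcp5-1 and 5 to 18 reads in Col-0. These groups overlapped (adjusted p = 0.253). Of the photosystem I reaction centre pair, psaA fell, with 0.872, 1.05 and 0.751 FPKM in dcp5-1 and 1.63, 1.49 and 2.17 FPKM in Col-0 (adjusted p = 0.00903). Its neighbour psaB had 0.740, 0.791 and 0.844 FPKM in dcp5-1 and 1.27, 0.842 and 1.90 FPKM in Col-0 and did not pass (adjusted p = 0.123). The ATP synthase gene atpB fell, with 18.4, 18.9 and 18.3 FPKM in dcp5-1 and 26.7, 31.8 and 31.3 FPKM in Col-0 (log2 fold change -0.66 ± 0.12 SE, adjusted p = 0.00088), as did atpE and atpF, the 3 of 6 named ATP synthase loci that passed. The Rubisco gene rbcL had 4.71, 4.69 and 3.93 FPKM in dcp5-1 and 6.94, 4.34 and 6.35 FPKM in Col-0, and did not pass (adjusted p = 0.259). The protease subunit gene clpP1 fell to 11.9, 12.6 and 11.6 FPKM in dcp5-1, against 18.5, 19.3 and 18.8 FPKM in Col-0 (adjusted p = 0.00025).

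Before salt, at 0 min, 22 of the 66 plastid loci were lower in dcp5-1 than in Col-0 and 1 was higher. Among all loci 28.1% were lower and 18.8% higher, so the share of plastid loci called lower, 33.3%, was near that of all loci. It depended on depth, with 14 of 21 named loci with at least 1000 reads called lower and 6 of 28 with fewer. The share of all loci was not split by reads. The 2 groups were clear of each other with dcp5-1 lower in 22 plastid loci (30.7% of all loci) and with dcp5-1 higher in 1 (21.3% of all loci). The median log2 fold change was -0.36 over the plastid loci and -0.05 over all loci. Lower loci again included ycf1.2, at 53.6, 48.7 and 52.7 FPKM in dcp5-1 and 78.1, 102 and 94.4 FPKM in Col-0 (log2 fold change -0.80 ± 0.10 SE, adjusted p = 6.56e-05). Among ribosomal protein genes 9 of 20 fell, the most being rps7.2 (small subunit, ATCG01240), with 22.3, 16.6 and 20.5 FPKM in dcp5-1 and 36.7, 45.8 and 35.2 FPKM in Col-0 (log2 fold change -0.95 ± 0.13 SE). Its copy rps7.1 (ATCG00900) had 26.3, 24.9 and 22.3 FPKM in dcp5-1 and 38.1, 39.9 and 43.8 FPKM in Col-0. In both copies the 2 groups were clear of each other. The 3 neighbours ndhC, ndhK and ndhJ fell at 0 min as at 60 min. In ndhK the libraries held 33.9, 34.2 and 36.9 FPKM in dcp5-1 and 52.4, 66.0 and 51.5 FPKM in Col-0 (adjusted p = 0.000654).

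Of the 22 named photosynthesis loci 5 fell at 0 min, these 3 neighbours with psbD and petA, the cytochrome f gene. That is 22.7%, below the 28.1% of all loci. In psbD the libraries held 14.01, 10.7 and 17.7 FPKM in dcp5-1 and 21.4, 23.15 and 17.0 FPKM in Col-0 (adjusted p = 0.0158), with an overlap of 1 library on each side. In psbC they held 4.93, 5.42 and 6.23 FPKM in dcp5-1 and 6.14, 6.91 and 5.72 FPKM in Col-0, which did not pass (adjusted p = 0.237). Nor did psaA, psaB, psbA, psbB, atpB and rbcL, with log2 fold changes between -0.40 (psbA) and 0.35 (rbcL). The single higher locus was rpl23.2, with 22.7, 18.04 and 15.8 FPKM in dcp5-1 and 7.51, 13.6 and 9.53 FPKM in Col-0 (log2 fold change 0.85 ± 0.22 SE, adjusted p = 0.00839). That is 18, 16 and 14 reads in dcp5-1 and 6, 9 and 7 reads in Col-0. The identical copy rpl23.1 had 17, 12 and 13 reads in dcp5-1 and 11, 13 and 13 reads in Col-0 and did not pass. Since reads of the copies cannot be told apart, the call rests on how they were divided. A rise of the gene with both copies pooled was not tested. The locus ATCG00070 was called lower as well, with 0, 16.8 and 0 FPKM in dcp5-1 and 18.8, 23.05 and 21.1 FPKM in Col-0, but it was listed at 0 in 7 of 12 libraries.

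**Figure D4:**
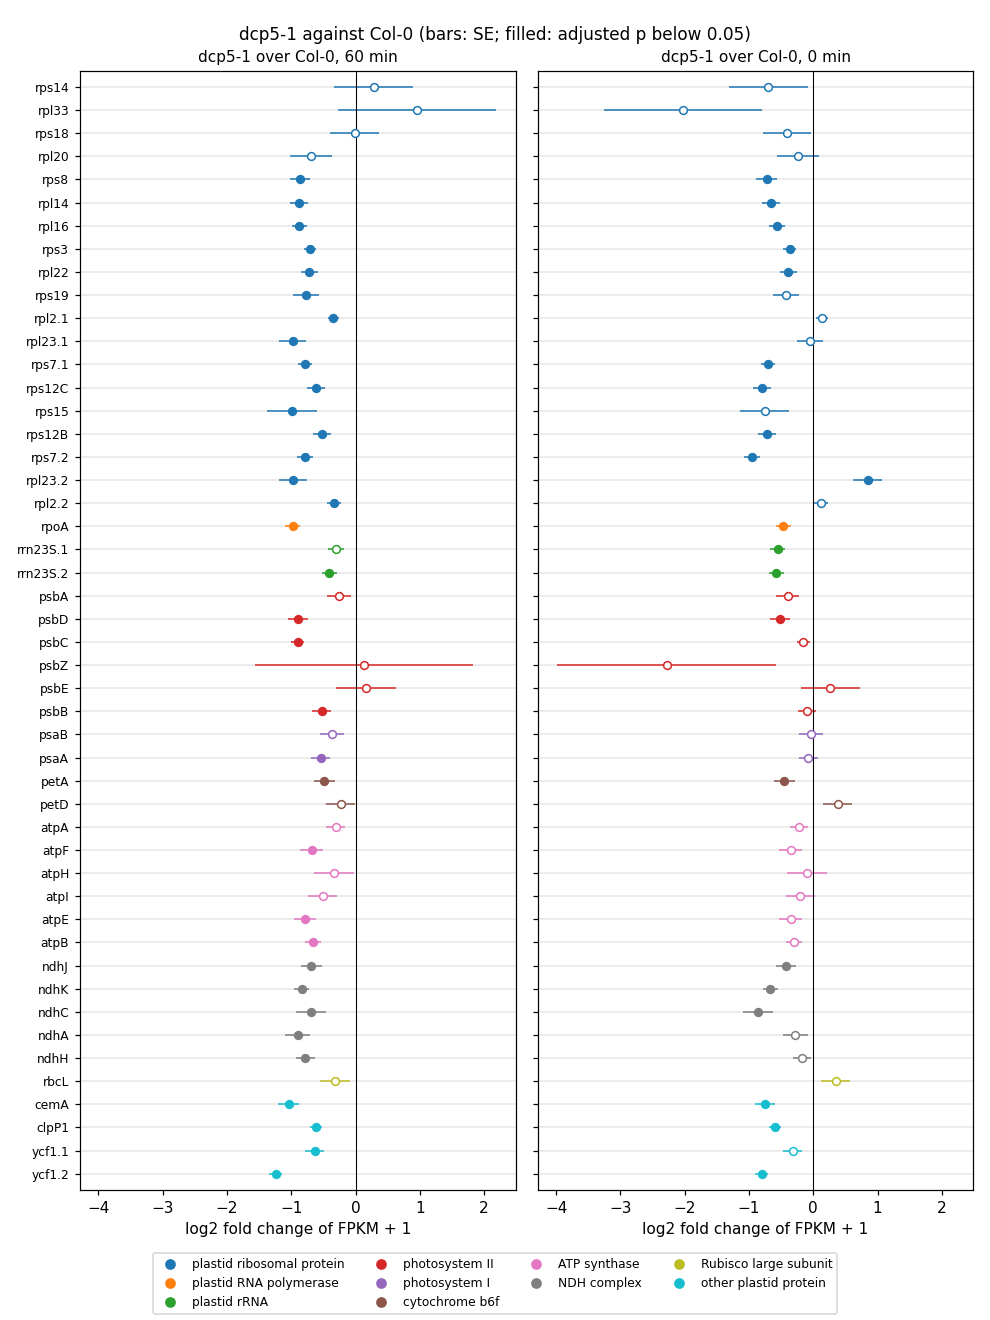
Log2 fold change of FPKM + 1 (horizontal axis, bars ± SE) of dcp5-1 over Col-0 at 60 min (left) and at 0 min (right) for 48 named plastid loci, coloured by functional class and filled where the adjusted p is below 0.05. On the left 34 loci are filled and all lie below 0. On the right 20 filled loci lie below 0 and rpl23.2 lies above it at 0.85.

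The salt comparison within dcp5-1 gave 20 lower and 0 higher plastid loci at 60 min against 0 min, where 31.6% of all loci were called lower and 35.1% higher. The share of plastid loci called lower, 30.3%, was near that of all loci. It depended on depth, with 14 of 21 named loci with at least 1000 reads called lower and 5 of 28 with fewer. The share of all loci was not split by reads. At an unadjusted p under 0.05 limma gave 0 higher and 25 lower, and limma-voom on recovered reads gave 0 higher and 22 lower among 49. Without overlap between the times, 24 plastid loci were lower (34.9% of all loci) and 0 higher (38.4% of all loci). The median log2 fold change was -0.36 over plastid loci and 0.02 over all loci. By this contrast rbcL, whose product fixes carbon dioxide, had 4.71, 4.69 and 3.93 FPKM at 60 min and 8.87, 5.57 and 10.4 FPKM at 0 min (log2 fold change -0.74 ± 0.23 SE, adjusted p = 0.0134). The ATP synthase gene atpE had 41.3, 41.0 and 60.6 FPKM at 60 min and 84.8, 69.9 and 77.3 FPKM at 0 min (log2 fold change -0.71 ± 0.18 SE, adjusted p = 0.00389). Both genes kept the 2 times apart in every library. The reaction centre gene psbA fell to 0.186, 0.612 and 0.422 FPKM at 60 min, against 1.04, 1.14 and 1.56 FPKM at 0 min (adjusted p = 0.00614).

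In dcp5-1, psbB, psbC, psbD, atpB and clpP1 were also called lower at 60 min, with log2 fold changes of -0.45, -0.47, -0.42, -0.36 and -0.65 on the scale of FPKM + 1. The log2 fold changes of psaA and psaB, -0.33 and -0.32, did not pass (adjusted p = 0.0706 and 0.147). Of 20 ribosomal protein loci 4 fell, or 20%, beside 31.6% of all loci. Both copies of rpl2 stood almost level, with rpl2.1 at 132, 131 and 135 FPKM at 60 min and 135, 120 and 134 FPKM at 0 min (log2 fold change 0.04 ± 0.09 SE). The whole ycf1.2 gene fell, with a log2 fold change of -0.60 ± 0.10 (SE, adjusted p = 0.000246). ATCG01020 showed a larger change, with 1207, 957 and 858 FPKM at 60 min and 2739, 1658 and 2716 FPKM at 0 min (log2 fold change -1.21 ± 0.30 SE).

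In Col-0, plastid genes moved both ways between 0 min and 60 min in salt. At 60 min 7 loci were higher and 13 lower than at 0 min, when 36.3% of all loci were called higher and 35.7% lower. Fewer plastid loci than that passed in either direction. The higher count was 11 without Col-0 at 60 min replicate 1, and the lower count was 8 without Col-0 at 0 min replicate 2. Without overlap between the times, 7 were higher (37.4% of all loci) and 13 lower (36% of all loci). The median log2 fold change was -0.06 over plastid loci and 0.01 over all loci. Those that rose included rpl23.1, rpl23.2, rpl2.1, rpl2.2, psbC and ndhH. The ribosomal protein gene rpl23.2 had 29.8, 23.5 and 19.7 FPKM at 60 min and 7.51, 13.6 and 9.53 FPKM at 0 min (log2 fold change 1.19 ± 0.22 SE, adjusted p = 0.000432). Its identical copy rpl23.1 had 21.3, 26.8 and 26.9 FPKM at 60 min and 13.8, 19.6 and 17.7 FPKM at 0 min (adjusted p = 0.034). By limma-voom on recovered reads rpl23.1 did not pass (adjusted p = 0.133).

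The well counted rpl2.1, with 17726 reads, stood at 154, 183 and 171 FPKM at 60 min and 102, 127 and 126 FPKM at 0 min in Col-0 (log2 fold change 0.52 ± 0.09 SE, adjusted p = 0.000231). Against these rises, psbA fell to 0.724, 0.310 and 1.06 FPKM at 60 min in Col-0, against 1.61, 2.31 and 1.95 FPKM at 0 min (log2 fold change -0.82 ± 0.18 SE, adjusted p = 0.00165). The protease gene clpP1 fell to 18.5, 19.3 and 18.8 FPKM, against 26.2, 34.0 and 30.2 FPKM at 0 min (adjusted p = 7.41e-05). Both copies of the 23S ribosomal RNA gene fell. The first copy, rrn23S.1, had 2.09, 1.79 and 2.07 FPKM at 60 min and 3.71, 4.88 and 4.95 FPKM at 0 min. For psbC, the rise to 7.25, 8.68 and 7.47 FPKM at 60 min, against 6.14, 6.91 and 5.72 FPKM at 0 min, was small (log2 fold change 0.28 ± 0.10 SE, adjusted p = 0.0277).

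Of the 22 named photosynthesis loci, 2 rose and 3 fell in Col-0. These shares, 9.09% and 13.6%, lay below the 36.3% and 35.7% of all loci. Besides psbA, ndhK fell to 36.5, 47.9 and 36.4 FPKM at 60 min, against 52.4, 66.0 and 51.5 FPKM at 0 min (log2 fold change -0.48 ± 0.12 SE, adjusted p = 0.0026). Its neighbour ndhC fell to 9.60, 14.6 and 14.1 FPKM at 60 min, against 22.3, 23.4 and 23.5 FPKM at 0 min (log2 fold change -0.83 ± 0.23 SE, adjusted p = 0.00749). In both genes the times did not overlap. The other 17 did not pass, among them psaA, psbB, psbD and rbcL, with log2 fold changes of 0.14 for psaA, -0.02 for psbB, -0.04 for psbD and -0.07 for rbcL. For atpB and psaB the adjusted p was 0.976 and 0.997. The 3 largest called falls in Col-0 were those of rpl33, ATCG00070 and ATCG01020. The ribosomal protein gene rpl33 had 14 reads over all libraries, 1 of them in Col-0 at 60 min against 2, 5 and 1 reads at 0 min. ATCG00070 was listed at 0 in 2 of 3 Col-0 libraries at 60 min. ATCG01020, for which reads were not sought, was at 1903, 2861 and 1687 FPKM at 60 min and 5515, 10252 and 4720.2 FPKM at 0 min (log2 fold change -1.62 ± 0.30 SE). Col-0 at 0 min replicate 2 was the highest of its 3 libraries there.

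**Figure D5:**
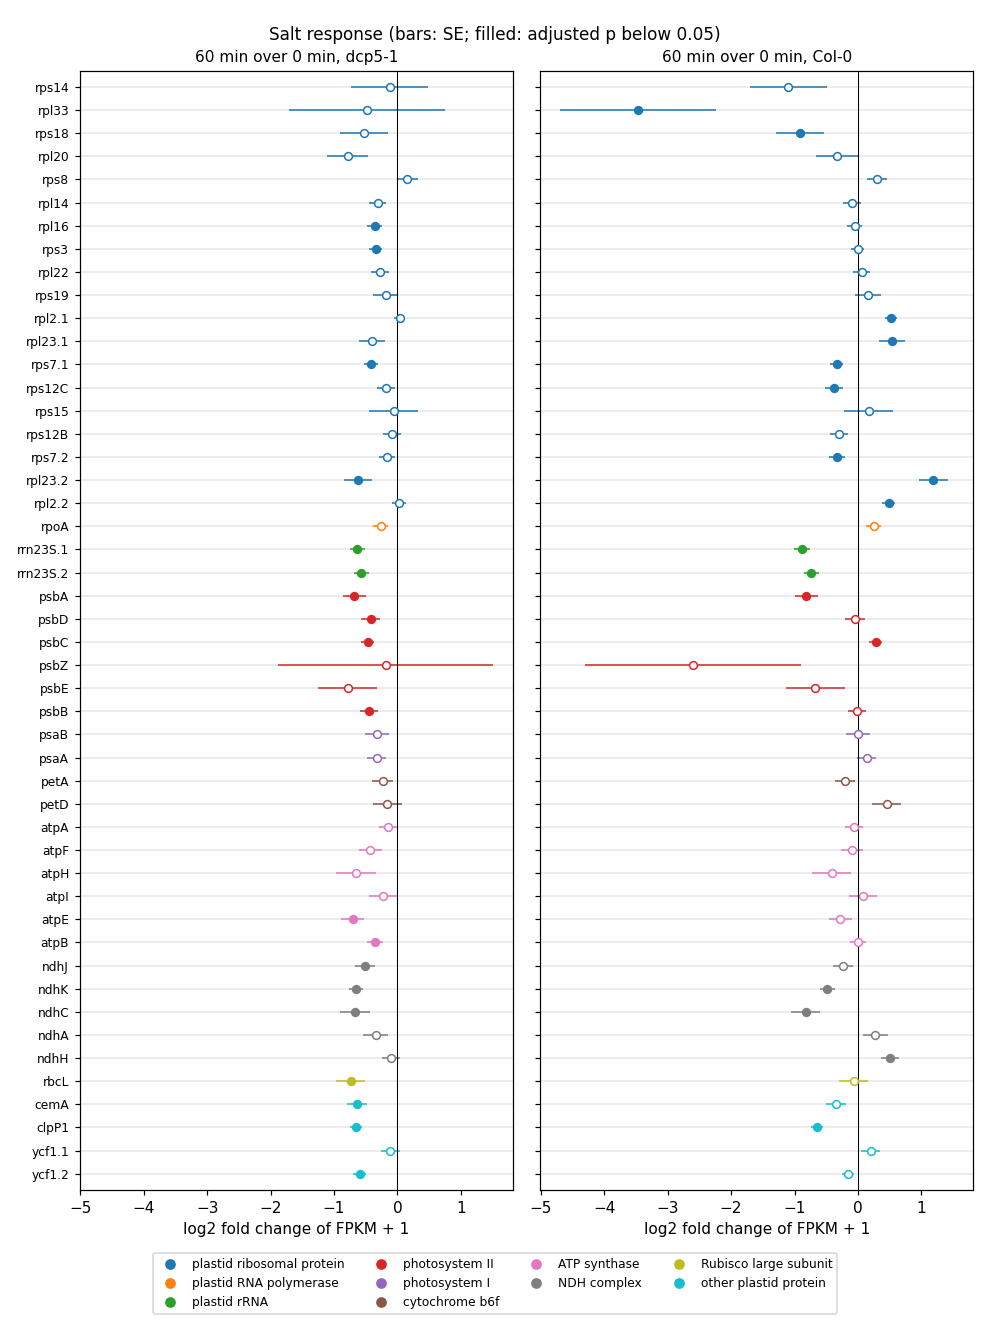
Log2 fold change of FPKM + 1 (horizontal axis, bars ± SE) of 60 min over 0 min in salt, in dcp5-1 (left) and Col-0 (right), for 48 named plastid loci, coloured by functional class and filled where the adjusted p is below 0.05. On the left 19 filled loci lie below 0 and none above. On the right 6 filled loci lie above 0 and 11 below.

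The salt directions depended on how libraries were put on one scale. Reads of plastid loci in Col-0 numbered 20091, 20889 and 21148 at 60 min and 15126, 16753 and 16766 at 0 min, while the reads that the scale stands for were 20610000, 20160000 and 21030000 at 60 min and 16870000, 14540000 and 15890000 at 0 min. With every library brought to one sum of nuclear protein-coding FPKM, the median over all loci moved by 0.45 on the log2 scale in Col-0, and 22 plastid loci were called higher and 6 lower. Among all loci 58.8% were then called higher and 15% lower. The plastid median was then 0.29 against 0.47 over all loci, so plastid loci lay below the median of all loci under both scales. In dcp5-1 that scale moved the median of all loci by 0.10, and the plastid median was -0.27. With the trend of each library with transcript length removed, the plastid medians for salt were 0.49 in Col-0 and 0.08 in dcp5-1. The genotype comparison at 60 min kept its direction under the same changes of scale, with plastid medians of -0.90 at one nuclear sum, -0.74 without the length trend and -0.69 after quantile normalization. Of its 37 lower loci, 37 passed again at one nuclear sum, where 38.7% of all loci were called lower.

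Whether the response to salt differed between the genotypes was tested as an interaction, the log2 change in dcp5-1 minus that in Col-0. It was negative and called in 8 plastid loci and positive in 0, where 8.06% of all loci were called negative and 16.3% positive. The median was -0.31 over plastid loci and 0.04 over all loci. At an unadjusted p under 0.05 limma gave 13 negative and 0 positive, and limma-voom on recovered reads gave 9 negative and 0 positive. Of the 8 called by limma, 7 passed by voom, and rpl23.1 did not (voom adjusted p = 0.142). Among the 8 were rpl23.1, rpl23.2, rpl2.1, rpl2.2, rpoA, psbC and ycf1.2. In rpl23.2 the interaction was -1.82 ± 0.31 (SE, adjusted p = 0.00243) and in rpl23.1 -0.93 ± 0.29 (SE, adjusted p = 0.0378). In psbC the interaction was -0.75 ± 0.14 (SE, adjusted p = 0.00423), since its level was higher after salt in Col-0 and lower after salt in dcp5-1. None of psbA, psbB, psbD, psaA, psaB, atpB, rbcL and clpP1 passed this test. Their values lay between -0.67 (rbcL) and 0.14 (psbA). The count rested on single libraries. It was 5, 4 and 4 without dcp5-1 at 60 min replicates 1, 2 and 3, 4 without replicate 1 and 4 without replicate 3 of dcp5-1 at 0 min, 5 and 3 without replicates 2 and 3 of Col-0 at 60 min, and 5 without replicate 1 of Col-0 at 0 min.

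Nuclear genes that serve plastid transcription were called in both directions between the genotypes. Of 8 sigma factors and phage-type polymerases, 4 were higher and 2 lower in dcp5-1 at 60 min, where 27.1% of all loci were higher and 27.4% lower. After salt 6 were higher in dcp5-1 (35.1% of all loci) and 7 in Col-0 (36.3% of all loci), with 0 lower in both. The sigma factor gene SIG5, known to respond to light and stress, had 27.5 ± 0.637 FPKM in dcp5-1 and 41.7 ± 0.411 FPKM in Col-0 at 60 min, and 13.9 ± 0.978 FPKM in dcp5-1 and 26.5 ± 2.86 FPKM in Col-0 at 0 min (SD, n = 3 each). It was lower in the mutant at both times (log2 fold change -0.58 at 60 min and -0.88 at 0 min). SIG6 was higher in the mutant, at 64.5 ± 3.01 FPKM in dcp5-1 and 41.7 ± 0.480 FPKM in Col-0 at 60 min (log2 fold change 0.61, adjusted p = 4.74e-06). SIG1 and SIG2 were higher in dcp5-1 at 60 min by 0.40 and 0.18 on the log2 scale, SIG4 was lower (log2 fold change -0.26), and SIG3 did not pass (-0.15, adjusted p = 0.153). The plastid phage-type polymerase gene RPOTP, listed as SCA3 in the annotation, was higher by 0.44.

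Of 12 proteins that associate with the plastid polymerase, 7 were higher and 1 lower in dcp5-1 at 60 min, beside the same 27.1% and 27.4% of all loci. PTAC6 led, at 40.8 ± 1.21 FPKM in dcp5-1 and 21.3 ± 0.556 FPKM in Col-0 (SD, n = 3 each). Among 6 genes of plastid RNA processing and decay, 2 were higher and 3 lower in that comparison, and 5 were higher after salt in each genotype, beside 35.1% of all loci in dcp5-1 and 36.3% in Col-0. The ribonuclease J gene (AT5G63420) had 4.02 ± 0.352 FPKM in dcp5-1 at 60 min and 1.21 ± 0.0549 FPKM in dcp5-1 at 0 min.

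The nucleus-encoded partners of the plastid subunits, 21 genes of light harvesting, photosystems, plastocyanin, ATP synthase and the small subunit of Rubisco, gave 11 lower and 3 higher in dcp5-1 at 60 min (27.4% and 27.1% of all loci), and 19 lower and 0 higher at 0 min (28.1% and 18.8% of all loci). The 3 higher at 60 min were RBCS1A, RBCS1B and RBCS3B, genes of the small subunit of Rubisco. The interaction of the 21 was positive in 13 and negative in 0, where 16.3% of all loci were positive and 8.06% negative. LHCB3, a light-harvesting gene of photosystem II, had 589.9 ± 21.7 FPKM in dcp5-1 at 60 min, 1681 ± 37.3 FPKM in dcp5-1 at 0 min, 707 ± 36.7 FPKM in Col-0 at 60 min and 2991 ± 268 FPKM in Col-0 at 0 min. RBCS1A was listed at 0 in every library at 0 min, and no fold is given for it. It is 1 of the 13 positive interactions. Its interaction, 0.63, is the same value as its log2 difference between the genotypes at 60 min, so it measures no difference in salt response. The summed FPKM of the 21 genes, which include the markers of green shoot tissue, spanned 54425 to 56708.5 in dcp5-1 and 50034 to 56161 in Col-0 at 60 min, and 56929 to 58870.1 in dcp5-1 and 81276 to 100211 in Col-0 at 0 min. At 60 min these sums overlapped between the genotypes. Without RBCS1A, left out after the data were seen, they spanned 38659 to 40398 in dcp5-1 and 40486 to 45081 in Col-0 at 60 min, with every dcp5-1 library below every Col-0 library. Of 13 root markers, 10 could be tested, and 1 was higher and 6 lower in dcp5-1 at 60 min. Their summed FPKM was 2147 to 2192 in dcp5-1 and 1380.2 to 1438 in Col-0 at 60 min, and 2248 to 2313 in dcp5-1 and 1764 to 2034 in Col-0 at 0 min. PYK10, a glucosidase gene of roots and hypocotyls, made up most of it, at 2072 FPKM in dcp5-1 and 1277 FPKM in Col-0 at 60 min. It was the 1 marker called higher, so the sum went against CASP1 to CASP5 and EXPA7, the 6 called lower. No root marker was at 0 in a whole group, and the part of root and shoot tissue in the plastid differences was not tested.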

How the data were processed

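The authors deposited FPKM values for 38088 loci in 12 libraries, and all 12 columns were used. Bowtie, with no version, and the genome build TAIR10 appear in the submitters' processing notes. Not given in the sources used here are the program behind the FPKM, its annotation and how it treats reads with several matches. Plastid loci and gene lists were chosen with earlier results of these data known.

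The 19876 loci whose mean reached 1 FPKM were fitted with limma 3.58.1 in R 4.3.3 on log2(FPKM + 1), with an expression trend, 4 group means and 12 libraries. Fold changes on that scale understate changes of low genes. P-values were adjusted by Benjamini and Hochberg over all loci of a contrast, at a threshold of 0.05. The limit for tested loci equals the limit for plastid loci described, so all 66 were tested. The fit was tested on simulated data for salt in dcp5-1: of 100 changes of 1.5 and 100 of 0.7 on the log2 scale among 19876 genes, 100 and 95 were recovered, with 9 false calls. Changes were planted only in genes with a mean log2(FPKM + 1) above 1.5. Recovery was therefore not tested for lower loci such as psbA.

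Whole reads were recovered from the steps of low FPKM values, since a value is a whole multiple of what 1 read of that transcript is worth. Between 96.8% and 99.4% of values came within 0.1 read of a whole number. Names came from the usual TAIR locus nomenclature and were kept where the recovered length matched. For 7 of the 49 named loci a different plastid gene has the same length, so the length alone did not decide. For 15 of the 66 loci no length was recovered. Most of these were above a limit on the mean FPKM and were not tried, ATCG01020 among them. Read counts cover counting error only.

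Named in each contrast were psbA, psbB, psbC, psbD, psaA, psaB, petB, atpB, rbcL, ndhF, rpoB, accD, clpP1 and rps4, the 3 largest called rises and falls without overlap, SIG1 to SIG6, RPOTP and the leaders of the nuclear lists. Other plastid loci with values were added after their values were seen. One plastid locus is counted but not reported by name here or drawn. Shares were compared by exact permutation in scipy 1.17.1. Alternatives covered the pseudocount, the filter, 4 scalings, the libraries and the block. Sequences and lengths come from RefSeq, TAIR10.1.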

Additional observations from a re-analysis of the deposited data

Results flagged for a closer look

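A difference between the genotypes in their response to salt flagged the 7 plastid loci given here, by the interaction term of the limma fit on log2(FPKM + 1). The interaction, dcp5-1 minus Col-0, was -1.82 in rpl23.2, -0.93 in rpl23.1, -0.75 in psbC, -0.51 in rpoA, -0.48 in rpl2.1, -0.46 in rpl2.2 and -0.44 in ycf1.2. By limma-voom on recovered reads rpl23.1 did not pass. The copies of rpl2 and of rpl23 share their reads and are not separate observations. With 3 libraries in each group, no single library was tested as standing apart.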

How the results depend on the processing

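The 37 lower plastid loci in dcp5-1 at 60 min stayed between 34 and 39 when 1 library was left out, and of the 36 that voom on recovered reads could fit, 36 passed there. Centring each library on its plastid median takes out the shared shift by construction, and it left 6 lower and 9 higher at 60 min and 6 lower and 4 higher at 0 min, for salt 5 lower and 6 higher in dcp5-1 and 8 lower in Col-0, and for the interaction 8 higher. Of all loci, 0.413% were then lower and 43% higher at 60 min, and 0.815% lower and 2.71% higher at 0 min. For salt in dcp5-1 3.1% were lower and 44.4% higher, in Col-0 9.03% lower, and for the interaction 0.649% higher. Reversed under this centring were, for salt in dcp5-1, psbB (0.23), psbC (0.21), psbD (0.26), atpB (0.32) and clpP1 (0.024), and at 60 min psbB (0.20), psaA (0.18), atpB (0.062) and clpP1 (0.11). One nuclear sum gave 22 higher and 6 lower for salt in Col-0, 3 higher and 14 lower at 0 min and 25 lower for the interaction, and turned psbD in salt in Col-0 to 0.47. Of all loci it gave 58.8% higher and 15% lower for salt in Col-0, 18.7% and 9.75% at 0 min, and 21.9% lower for the interaction. Quantile normalization gave 14 higher for salt in Col-0, 2 for salt in dcp5-1, 2 at 0 min, and 14 lower for the interaction. The shares of all loci in the same order were 38.7%, 35.6%, 24.1% and 10.4%. Without the length trend, which 53 plastid loci allowed, salt gave 29 higher and 3 lower in Col-0 and 9 higher and 9 lower in dcp5-1, the interaction 14 lower, and psbD and clpP1 in Col-0 turned to 0.39 and 0.14. Of all loci, salt then gave 35.1% higher and 33.5% lower in Col-0 and 33.2% higher and 31.7% lower in dcp5-1, and the interaction 8.22% lower. With no filter the interaction had 4 lower. Apart from what these constructions show, the cause was not tested. Leaving out 1 library gave 5 to 11 higher and 8 to 13 lower for salt in Col-0 and 3 to 11 lower for the interaction. With the replicate number as a block, the counts of higher and lower were 0 and 36 at 60 min, 1 and 20 at 0 min, 0 and 20 for salt in dcp5-1, 7 and 12 for salt in Col-0 and 0 and 6 for the interaction. Shares of all loci are not given for the counts with no filter, with 1 library left out or with the block. Residuals of 18 pairs of libraries with the same number correlated at -0.132 to 0.255, with 2 over 0.1. Those of 36 pairs with different numbers correlated at -0.179 to 0.207, with 4 over 0.1. With 3 libraries in each group, this cannot show whether the numbers pair the libraries. The plastid share of all summed FPKM is set by the loci with no recovered length. Its difference was 20.6 percentage points for salt in dcp5-1, against -0.017 from reads, -2.88 for salt in Col-0, against 0.0935 without those loci, and 3.02 between genotypes at 60 min, against -0.088 without them and -0.0446 from reads. Leaving out 1 library gave -8.45 to 4.07 for salt in Col-0 and -3.92 to 8.59 at 60 min. The fit by voom, the share from reads and the share without those loci were chosen after seeing the data. Of 544 values of single genes under the other settings, 470 kept direction and call. Depth limits the low genes: 28 named loci had under 1000 reads.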

Other observations

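The 15 plastid loci with no recovered length carried the summed FPKM of the table. Plastid loci made up 72.8% ± 5.76 of it in dcp5-1 and 69.8% ± 12.7 in Col-0 at 60 min, and 52.2% ± 12.6 in dcp5-1 and 72.7% ± 10.9 in Col-0 at 0 min (SD, n = 3 each). The exact permutation test gave p = 0.9 between the genotypes at 60 min, 0.2 at 0 min, 0.1 for salt in dcp5-1 and 0.7 for salt in Col-0. Among the 180 values of these loci 112 were at 0, and the highest was 5111030 FPKM, so a value above 0 at such a locus can exceed the sum of all other loci. Without them, the named and other plastid loci made up 0.125% ± 0.0117 in dcp5-1 and 0.213% ± 0.0557 in Col-0 at 60 min. The share in that sum moves with these few loci and is given as a property of the table.

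The loci ATCG00890 and ATCG01250 had the same recovered length, 1170 nt, which matched no spliced plastid gene of the annotation. ATCG00890 had 0.873, 1.24 and 0.797 FPKM in dcp5-1 and 1.76, 1.09 and 1.56 FPKM in Col-0 at 60 min. ATCG01250 had 0.600, 0.811 and 0.638 FPKM in dcp5-1 and 1.54, 1.201 and 1.25 FPKM in Col-0, and it was called lower there (adjusted p = 0.0413).

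Among the plastid loci below 1 FPKM, none of which was tested, ycf4 had group means of 0.826 FPKM in dcp5-1 and 0.547 FPKM in Col-0 at 60 min, while rpoB had 0.682 FPKM in dcp5-1 and 1.07 FPKM in Col-0. The copies of the 16S ribosomal RNA gene were under the limit too, at 0.807 and 0.635 FPKM over all libraries, although ribosomal RNA is the most abundant RNA of chloroplasts.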
